A study of Danio rerio with 18 samples.

Results

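TAT, hpda, HPD, HGD, FAH, TDO2, HAL, UROC1, GNMT and ALDH7A1 encode enzymes that break down amino acids, and their RNA levels were compared in livers of zebrafish larvae that differed in genotype at uhrf1 and in drug treatment. The genes were chosen by name: of 32105 gene IDs in the count table, every ID was kept whose symbol was among 9 listed symbols, ignoring capitals and allowing a trailing a or b to be absent. The listed symbols were tat, hpda, hgd, fah, tdo2a, hal, uroc1, gnmt and aldh7a1. This gave 10 IDs, because the listed hpda matched both hpda itself and a gene that carries the symbol HPD. The IDs were ENSDARG00000069630 for TAT, ENSDARG00000018351 for hpda, ENSDARG00000044935 for HPD, ENSDARG00000058005 for HGD and ENSDARG00000101762 for FAH. The remaining IDs were ENSDARG00000071429 for TDO2, which matched the listed tdo2a, ENSDARG00000017444 for HAL, ENSDARG00000070394 for UROC1, ENSDARG00000006840 for GNMT and ENSDARG00000018426 for ALDH7A1.

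The study sequenced RNA from 18 pools of dissected livers. Larvae came from an incross of uhrf1-hi272 heterozygotes in the ABNYU strain, and all of them, controls included, carried Tg(fabp10a:CAAX-EGFP), in which a hepatocyte promoter drives a membrane-bound green fluorescent protein. uhrf1 encodes a protein that brings the maintenance DNA methyltransferase to newly copied DNA, and palbociclib inhibits cyclin-dependent kinases that let cells enter S phase. The groups were mutant palbociclib (n = 5), control palbociclib (n = 4), mutant DMSO (n = 5) and control DMSO (n = 4). The palbociclib groups received 20 µM palbociclib in 0.5% DMSO and the DMSO groups 0.5% DMSO alone, starting 48 hours after fertilization, and livers were taken at 120 hours. The mutant libraries are uhrf1-hi272 homozygotes per the design text, which calls the controls wild type, where the title calls them siblings. Livers were collected in lots of 15 to 20, each carcass was genotyped, and livers of a genotype were pooled within a treatment batch, so a library is a pool and not a larva. Whether pools with the same label stem from different clutches is not stated. The p-values below therefore set group differences against the spread between these pools, which may be technical.

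The liver is the main site where surplus amino acids are broken down, and hepatocytes carry most of these enzymes. TAT, HPD, HGD and FAH carry tyrosine down to fumarate and acetoacetate. TDO2 opens the tryptophan ring, HAL and UROC1 start histidine breakdown, GNMT methylates glycine at the expense of S-adenosylmethionine, and ALDH7A1 oxidises an intermediate of lysine breakdown. In humans, loss of HGD causes alkaptonuria, and loss of FAH a tyrosinemia with liver disease.

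Levels are given as counts-per-million (CPM) on library sizes adjusted by TMM, a scaling that assumes most genes do not change. The values are not divided by gene length, so levels are compared between libraries and never between genes. A gene is called where edgeR's quasi-likelihood test, fitted to all 18 libraries and 17048 genes, gave a Benjamini-Hochberg adjusted p below 0.05. Total counts per library ran from 2863560 to 4056715 in mutant palbociclib, 3400255 to 4764175 in control palbociclib, 2467926 to 3618445 in mutant DMSO and 4141600 to 5199301 in control DMSO livers. All 10 genes passed the filter on low counts. The RNA of uhrf1 itself averaged 41.0 ± 6.82 CPM in mutant palbociclib (SD, n = 5) and 48.3 ± 7.75 CPM in control palbociclib (SD, n = 4), and 46.5 ± 7.55 CPM in mutant DMSO (SD, n = 5) and 37.8 ± 7.50 CPM in control DMSO livers (SD, n = 4). It was called in neither comparison, with edgeR adjusted p = 0.721 in palbociclib and 0.223 in DMSO, so the RNA of the targeted gene does not check the genotype labels.

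The libraries also differed in tissue markers. The 16 measured hepatocyte marker genes, such as fabp10a and transferrin, took 2.59 to 3.24% of the counts in mutant palbociclib, 2.34 to 4.06% in control palbociclib, 1.76 to 2.50% in mutant DMSO and 4.08 to 5.15% in control DMSO livers. The 19 muscle marker genes took 4.45 to 5.25% in mutant palbociclib, 3.57 to 5.35% in control palbociclib, 3.79 to 5.42% in mutant DMSO and 2.41 to 4.13% in control DMSO livers. The 13 skin marker genes averaged 0.846% in mutant palbociclib, 0.782% in control palbociclib, 0.802% in mutant DMSO and 0.538% in control DMSO livers. No hepatocyte, muscle or skin marker was at 0 in any group, so RNA of liver and of other tissues was present in all of them. Exocrine pancreas markers averaged 0.599 to 0.813% over the 4 groups and biliary markers 0.135 to 0.232%. Kidney tubule, pigment cell and erythroid markers averaged at most 0.0497%, 0.0220% and 0.0171%, with the globin hbaa1 at 0 in mutant palbociclib livers. Biliary markers took 0.162 to 0.216% in mutant palbociclib and 0.117 to 0.151% in control palbociclib livers. In DMSO they took 0.216 to 0.271% in mutant and 0.133 to 0.149% in control livers. Mutant and control pools thus did not overlap for biliary markers in either treatment, a difference that was not tested. The mean hepatocyte share was lowest in mutant DMSO livers, then mutant palbociclib, control palbociclib and control DMSO livers. In pooled tissue, fewer hepatocytes and less RNA per hepatocyte cannot be told apart.

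In DMSO, 9 of the 10 genes were lower in mutant than in control livers, and HPD was not called. Over all 17048 genes tested, 17.1% were called in this comparison and 10.4% were called lower. The median log2 fold change was -1.58 over the 10 genes and 0.06 over all genes tested. Libraries of the groups did not overlap for 8 of the 10 genes, all lower in mutant livers, where 8.24% of all genes tested had such a gap in that direction. The 9 lower levels are relative to the whole library. When libraries were scaled to the hepatocyte markers instead, the median over all genes tested moved to 1.63, and 15434 were called. On that scale TAT (0.017), hpda (0.019) and FAH (0.056) lay near 0 and were not called, and GNMT (0.63) and ALDH7A1 (0.58) were called higher. HGD, HAL and UROC1 stayed negative but were not called, and TDO2 was still called lower. All 10 genes but HPD lay below that median.

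Among the tyrosine enzymes, TAT, the aminotransferase that takes tyrosine out of the amino acid pool, had 231, 180.4, 145, 147 and 172 CPM in mutant DMSO livers, against 846, 558, 245 and 262 CPM in control DMSO livers. The groups did not overlap, but the control pools were split: the first and second were high, and the third and the fourth lay just above the highest mutant pool. Its log2 fold change was -1.45 (SE 0.406, edgeR adjusted p = 0.0225). This call was lost without the first control DMSO pool (adjusted p = 0.1002) and without the third or the fourth mutant DMSO pool (adjusted p = 0.0574 and 0.0543).

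hpda and HPD share the name of 4-hydroxyphenylpyruvate dioxygenase, the enzyme that makes homogentisate, and they behaved differently. hpda had 329, 318, 225, 248 and 284 CPM in mutant DMSO livers, against 870.4, 607, 893 and 942 CPM in control DMSO livers. The lowest control pool was well above the highest mutant pool, and the log2 fold change was -1.56 (SE 0.198, edgeR adjusted p = 4.54e-05). HPD had 49.0, 51.5, 63.9, 48.4 and 52.0 CPM in mutant DMSO livers, against 48.2, 61.7, 37.6 and 41.0 CPM in control DMSO livers. The groups of HPD overlapped, and its log2 fold change of 0.17 had an approximate 95% interval of -0.13 to 0.46 (edgeR adjusted p = 0.520). With library size alone as the scaling, under which the median of all genes tested was 0.42, HPD was called higher in mutant livers (0.50, edgeR adjusted p = 0.0389). The counting method is not known here, and reads that fit both of these related genes may have been split between them or left out.

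HGD, which opens the ring of homogentisate, had 95.8, 91.9, 91.7, 83.8 and 79.7 CPM in mutant DMSO livers, against 326, 205, 353 and 369 CPM in control DMSO livers. Its mutant pools lay close together, and all were far below the lowest control pool, at a log2 fold change of -1.82 (SE 0.163, edgeR adjusted p = 1.49e-07). FAH, which catalyses the last step of the pathway, had 83.4, 62.5, 49.3, 57.0 and 52.0 CPM in mutant DMSO livers, against 145, 70.2, 251 and 268 CPM in control DMSO livers. FAH was the only called gene of the 10 whose DMSO groups overlapped, since its second control pool was below its first mutant pool. It was nonetheless called lower, at a log2 fold change of -1.59 (SE 0.343, edgeR adjusted p = 0.00425).

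TDO2, tryptophan dioxygenase, had 179.8, 155, 134, 147 and 137 CPM in mutant DMSO livers, against 661, 494, 847 and 851 CPM in control DMSO livers. It showed the largest difference of the 10 genes: 151 ± 18.3 CPM in mutant livers (SD, n = 5) and 713 ± 171 CPM in control livers (SD, n = 4), or 4.73-fold lower. The log2 fold change was -2.24 (SE 0.238, edgeR adjusted p = 8.2e-06), and no mutant pool came near a control pool.

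The pair of histidine enzymes moved by nearly the same amount. HAL, histidine ammonia-lyase, had 128, 113, 78.5, 103 and 107 CPM in mutant DMSO livers, against 403, 265, 402 and 453 CPM in control DMSO livers. UROC1, urocanate hydratase, which acts on the product of HAL, had 133, 124, 98.8, 128 and 121 CPM in mutant DMSO livers, against 464, 331, 503 and 481 CPM in control DMSO livers. Neither gene had overlapping groups. The log2 fold change was -1.85 for HAL (SE 0.221, edgeR adjusted p = 2.52e-05) and -1.88 for UROC1 (SE 0.243, edgeR adjusted p = 5.49e-05).

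GNMT and ALDH7A1 had the smallest of the called differences. GNMT had 121, 89.3, 71.4, 69.7 and 77.8 CPM in mutant DMSO livers, against 149, 132, 179.6 and 192 CPM in control DMSO livers. Its first mutant pool was the highest of its group and just under the lowest control pool, and the log2 fold change was -0.93 (SE 0.181, edgeR adjusted p = 0.00108). ALDH7A1 had 222, 234, 202, 211 and 222 CPM in mutant DMSO livers, against 429.8, 378, 451 and 485 CPM in control DMSO livers. Both of its groups were tight, so that a log2 fold change of -0.998 (SE 0.0992) had the smallest adjusted p of the 10 genes, 4.05e-10 by edgeR.

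**Figure D1:**
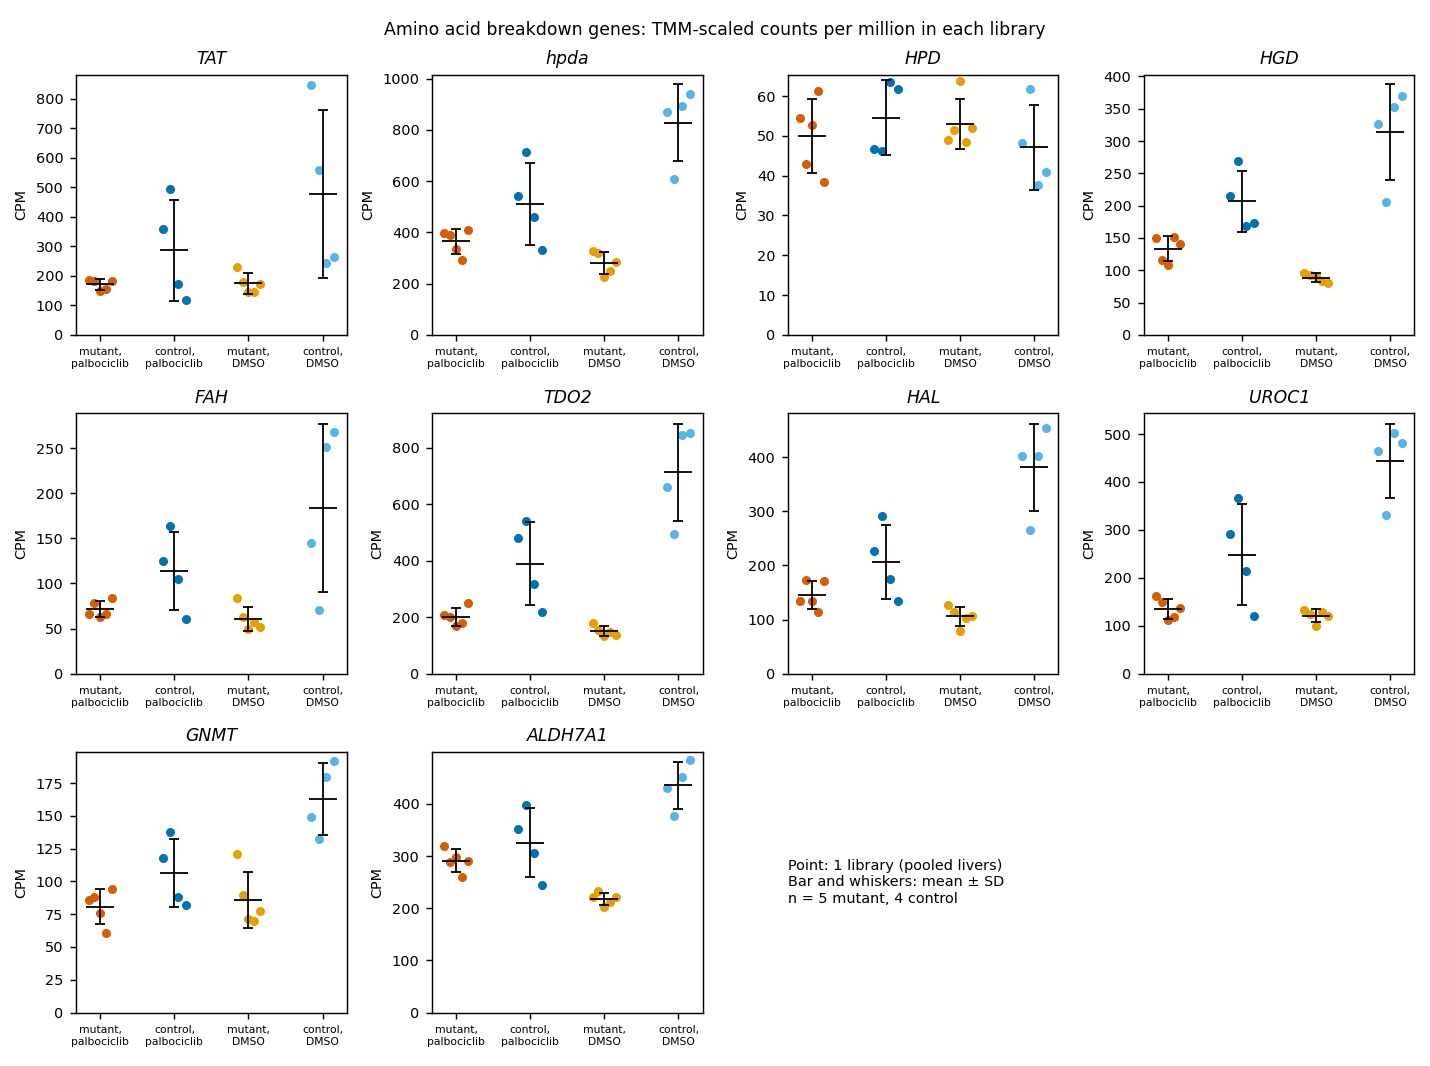
CPM (y axis, linear, from 0) of each of the 10 genes in mutant palbociclib, control palbociclib, mutant DMSO and control DMSO livers; each point is a pool of livers, and the bar and whiskers give the mean ± SD (n = 5 mutant, 4 control). Control DMSO pools stood highest on average for every gene but HPD, and the second control DMSO pool was the lowest of its group for hpda, HGD, FAH, TDO2, HAL, UROC1, GNMT and ALDH7A1.

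In palbociclib, none of the 10 genes was called between mutant and control livers, 0 by edgeR's adjusted p, where 1.05% of all genes tested were called. All 10 log2 fold changes were negative, with a median of -0.57 over the 10 genes and 0.03 over all genes tested. At an unadjusted edgeR p below 0.05, 6 of the 10 passed, where 1656 of all 17048 genes tested did. DESeq2 called 3 of the 10 and 336 of all genes tested. HGD alone had groups that did not overlap, where 1.43% of all genes tested lay lower in mutant livers without overlap.

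TDO2 again had the most negative value, with 207, 200.2, 167, 179.7 and 251 CPM in mutant palbociclib livers, against 480.1, 541, 319 and 219.6 CPM in control palbociclib livers. The groups overlapped through the last control pool and the last mutant pool, and the log2 fold change was -0.95 (SE 0.233, edgeR adjusted p = 0.0742). HGD had 149.6, 116, 109, 152 and 140.1 CPM in mutant palbociclib livers, against 215, 269, 169 and 173 CPM in control palbociclib livers. Every mutant pool was below every control pool, at a log2 fold change of -0.63 that was not called (edgeR adjusted p = 0.0705).

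UROC1 had 163, 149, 112, 118 and 137 CPM in mutant palbociclib livers, against 291, 367, 215 and 121 CPM in control palbociclib livers, at a log2 fold change of -0.87 (edgeR adjusted p = 0.133). Its first 2 control pools were high, and its last control pool lay within the mutant range. TAT had the widest split of this kind, with 148 to 184 CPM in mutant palbociclib livers, against 358, 495, 174 and 119 CPM in control palbociclib livers.

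The remaining genes overlapped between the palbociclib groups too. hpda had 294 to 408 CPM in mutant palbociclib livers, against 329.7 to 713 CPM in control palbociclib livers, and FAH had 63.2 to 84.2 CPM in the mutant and 60.5 to 164 CPM in the control livers. HAL had 113 to 173 CPM in mutant palbociclib livers, against 134 to 292 CPM in control palbociclib livers, and GNMT had 60.3 to 93.9 CPM in the mutant and 81.8 to 138 CPM in the control livers. ALDH7A1 had 259.9 to 319.7 CPM in mutant palbociclib livers, against 244 to 399 CPM in control palbociclib livers, and its log2 fold change of -0.16 was near that of HPD, -0.13. For each of these genes the lowest control pool was within or below the range of the mutant pools.

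Palbociclib was also set against DMSO within each genotype. In control livers, 3 of the 10 genes were called lower with palbociclib, HGD, HAL and ALDH7A1, where 5.71% of all genes tested were called and 4.33% were called lower. The median log2 fold change was -0.70 over the 10 genes and -0.02 over all genes tested. The log2 fold change was -0.60 for HGD (SE 0.169, edgeR adjusted p = 0.0419), -0.88 for HAL (SE 0.231, edgeR adjusted p = 0.0379) and -0.42 for ALDH7A1 (SE 0.105, edgeR adjusted p = 0.0126). Groups overlapped for all 10 genes, where 5.55% of all genes tested lay lower with palbociclib without overlap.

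HAL averaged 207 ± 68.2 CPM in control palbociclib livers and 381 ± 80.8 CPM in control DMSO livers (SD, n = 4 each), and HGD averaged 207 ± 46.8 CPM with palbociclib and 313 ± 74.2 CPM with DMSO (SD, n = 4 each). TDO2 averaged 389.8 ± 147 CPM in control palbociclib livers and 713 ± 171 CPM in control DMSO livers (SD, n = 4 each), a log2 fold change of -0.87 that was not called (edgeR adjusted p = 0.0529). The count of 3 depended on single pools: it was 0 without the third or the fourth control DMSO pool or the third or the fourth control palbociclib pool (replicates 4 and 5), 8 without the second control DMSO pool and 7 without the second control palbociclib pool. It was 1 without the first control DMSO, control palbociclib or mutant palbociclib pool. The count over all genes tested, 973 in the main fit, shifted with the same pools. It was 311 and 272 without the third and the fourth control DMSO pool, and 338 and 304 without the third and the fourth control palbociclib pool. Without the second pool it was 2019 for control DMSO and 1327 for control palbociclib. Over the 18 fits that each left out a pool, HGD lost its call in 12, HAL in 7 and ALDH7A1 in 4. Scaled to the hepatocyte markers none of the 3 was called, where 8502 of all genes tested were, and HGD (0.25) and ALDH7A1 (0.39) had positive values. The median over all genes tested was 0.83 on that scale, above both values.

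In mutant livers, ALDH7A1 was called higher with palbociclib and the other 9 genes were not called, where 0.54% of all genes tested were called and 0.0411% were called higher. ALDH7A1 had 319.7, 288, 299, 259.9 and 291 CPM in mutant palbociclib livers, against 222, 234, 202, 211 and 222 CPM in mutant DMSO livers. Every palbociclib pool was above every DMSO pool, at a log2 fold change of 0.42 (SE 0.0944, edgeR adjusted p = 0.0205). This call was lost, with an adjusted p of up to 0.0951, in 5 of 18 fits without a pool: the third or the fourth of mutant DMSO, or the first, the third or the fifth of mutant palbociclib. A block on replicate number also lost it (edgeR adjusted p = 0.0701). Scaled to the hepatocyte markers, ALDH7A1 was not called (-0.058, edgeR adjusted p = 0.821), where 872 of all genes tested were. The median over all genes tested was -0.49 on that scale, below the value of ALDH7A1. HGD showed the same gap between groups, with a lowest palbociclib pool of 109 CPM and a highest DMSO pool of 95.8 CPM, at a log2 fold change of 0.59 (edgeR adjusted p = 0.119). These 2 of the 10 genes lay higher without overlap, where 0.751% of all genes tested did.

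For the other genes the treated and untreated mutant pools overlapped. For hpda and HAL they did so only through the fourth palbociclib pool, at 294 and 113 CPM. The highest mutant DMSO pool had 329 CPM for hpda and 128 CPM for HAL. The log2 fold change was 0.46 for HAL, 0.42 for TDO2, 0.38 for hpda, 0.23 for FAH and 0.17 for UROC1. It was -0.04 for TAT, -0.08 for HPD and -0.08 for GNMT. Of these 8 genes none was called, and the median over all 10 was 0.31, where all genes tested had a median of 0.00.

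The interaction asks whether the mutant difference was itself different with palbociclib, as the log2 fold change in palbociclib minus that in DMSO. It was called for 3 of the 10 genes, all positive, where 1.99% of all genes tested were called and 1.74% were called positive. The interaction was 1.19 for HGD (SE 0.229, edgeR adjusted p = 0.00895), 1.34 for HAL (SE 0.312, edgeR adjusted p = 0.0405) and 0.84 for ALDH7A1 (SE 0.141, edgeR adjusted p = 0.000401). For these 3 genes the mutant deficit was smaller in palbociclib than in DMSO, and with the drug the mean level was lower in control livers and higher in mutant livers. HGD and ALDH7A1 were called whichever pool was left out, and HAL lost its call in 14 of 18 such fits. Scaled to the hepatocyte markers, none of these 3 interactions was called (edgeR adjusted p = 0.667 for HGD, 0.820 for HAL and 0.155 for ALDH7A1), and the 2 genes called, HPD (-1.63, edgeR adjusted p = 0.00144) and GNMT (-0.74, edgeR adjusted p = 0.0268), were negative, where the median over all genes tested was -1.34. In that fit 11367 of all genes tested were called. With TMM scaling the count of the 10 genes rose to 5 without the second control DMSO pool and to 6 without the second control palbociclib pool. Over all genes tested the count rose from 340 to 842 and 538 without these pools. The values for TDO2 (1.29, edgeR adjusted p = 0.0654) and hpda (1.08, edgeR adjusted p = 0.0678) missed the threshold, and TAT, FAH, UROC1 and GNMT had values from 0.53 to 1.01. HPD had the only negative value, -0.30. All of these comparisons share groups with one another, so their values are given side by side and not as separate evidence.

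**Figure D2:**
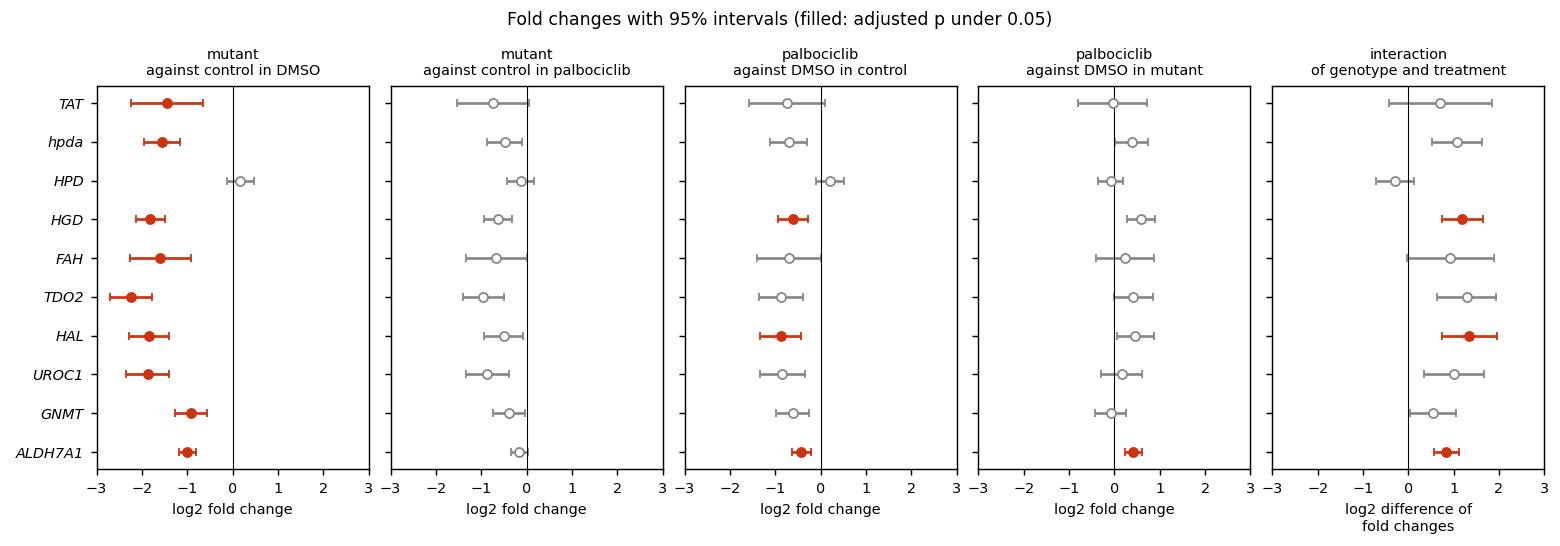
Log2 fold changes (x axis) of the 10 genes (rows) in each of the 4 comparisons between groups. The last panel gives the interaction as the difference of fold changes. Filled points have an edgeR adjusted p below 0.05. Bars are approximate 95% intervals, from the SE and a normal distribution. They can be narrower than the quasi-likelihood test allows, so a bar may miss 0 where the unadjusted edgeR p is above 0.05. All genes but HPD lie left of 0 in mutant against control in DMSO, and HGD, HAL and ALDH7A1 are filled in the interaction.

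Ordering the 4 groups by mean level gave the same order for 7 genes: mutant DMSO lowest, then mutant palbociclib, control palbociclib and control DMSO. These were hpda, HGD, FAH, TDO2, HAL, UROC1 and ALDH7A1. Among them, neighbours in the order were free of overlap between mutant palbociclib and mutant DMSO for HGD and ALDH7A1, and between mutant palbociclib and control palbociclib for HGD. All other neighbours overlapped. TAT and GNMT had mutant palbociclib lowest, at 171 ± 17.4 CPM and 80.9 ± 13.2 CPM (SD, n = 5), and for HPD all groups overlapped, with means from 47.1 to 54.6 CPM.

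The genes also varied together over the 18 libraries. The standardised log2 CPM of each gene was compared with the mean of the others over these libraries, in which all genes share a library's depth and tissue content. Group means were not removed, so the differences between groups given above enter these correlations. Pearson's r was 0.983 for TDO2, 0.982 for hpda, 0.979 for UROC1, 0.967 for HAL, 0.939 for ALDH7A1, 0.938 for HGD, 0.882 for GNMT and 0.860 for FAH. It was 0.741 for TAT and -0.485 for HPD, so these were the genes least like the rest. Among genes outside the 10, levels close to their mean over the 18 libraries were those of grhprb (r = 0.992), scp2a (r = 0.992), ces2a (r = 0.989), ahsg2 (r = 0.989) and AHCY (r = 0.986). grhprb encodes a glyoxylate reductase, and AHCY the hydrolase of S-adenosylhomocysteine, the product of GNMT. Both are in the amino acid lists used below, and scp2a, ces2a and ahsg2 are not. AHCY averaged 768 CPM in mutant palbociclib, 1126 CPM in control palbociclib, 643 CPM in mutant DMSO and 1557 CPM in control DMSO livers.

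Tissue markers moved with these levels. All 16 of the hepatocyte markers were called lower in mutant than in control livers in DMSO, with a median log2 fold change of -1.64, close to the -1.58 of the 10 genes. In palbociclib 1 of 16 was called lower, with a median of -0.29. Palbociclib against DMSO had 4 of 16 called lower in control livers (median -0.78) and 1 of 16 called higher in mutant livers (median 0.50), and the interaction had 6 of 16 called positive (median 1.37). The hepatocyte share of counts was 2.07 ± 0.309% in mutant DMSO livers (SD, n = 5) and 4.78 ± 0.475% in control DMSO livers (SD, n = 4). The exact two-sided permutation p was 0.0159, the smallest these group sizes can give, and 0.0952 after adjustment over 12 such tests. In palbociclib the share was 2.85 ± 0.293% in mutant livers (SD, n = 5) and 3.26 ± 0.734% in control livers (SD, n = 4), with an exact permutation p of 0.286. Between palbociclib and DMSO, the share was higher with the drug in mutant livers (exact permutation p = 0.00794). In control livers it was lower with the drug (exact permutation p = 0.0286). Each of these p-values was the smallest its group sizes can give, and each was 0.0952 after adjustment.

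The muscle share was 4.68 ± 0.653% in mutant DMSO livers (SD, n = 5) and 3.03 ± 0.777% in control DMSO livers (SD, n = 4), with an exact permutation p of 0.0317 and 0.0952 after adjustment. The control DMSO pool with the highest muscle share, the second at 4.13%, was the lowest of its group for TDO2 and the highest for HPD. Among control palbociclib pools, the last 2, at 4.88% and 5.35% muscle, had the 2 lowest TDO2 levels and the 2 highest HPD levels. The muscle share of each library was then added to the fit as a covariate, with which 1257 of all genes tested were called, against 2917 without it. Of the 10 genes 6 were still called lower in mutant DMSO livers, and TAT, FAH and GNMT were not. The log2 fold changes of these 9 genes then lay between -1.41 for TDO2 and -0.24 for FAH. The muscle share itself differed between these groups and comes from the same counts, so this fit cannot separate tissue content from genotype. The part of muscle, skin, biliary and hepatocyte content in the differences was not tested.

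**Figure D3:**
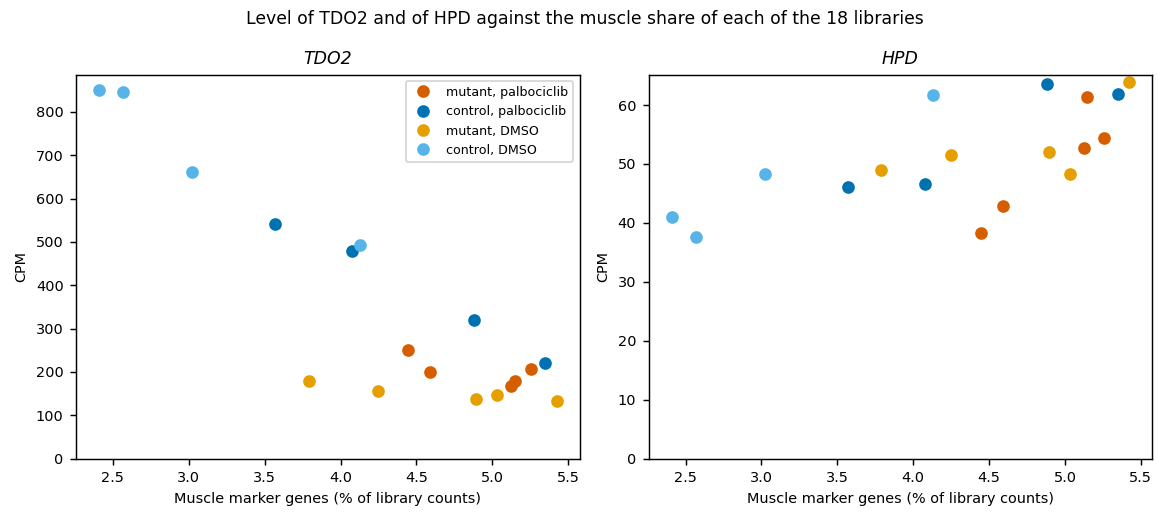
CPM of TDO2 (left) and HPD (right; y axes linear, from 0) against the percentage of library counts in muscle marker genes (x axis); each of the 18 points is a pool, coloured by group. Among control pools TDO2 runs from 851 CPM at 2.41% muscle, in DMSO, to 219.6 CPM at 5.35% muscle, in palbociclib, so these ends also differ in treatment. All mutant pools stay at or below 251 CPM for TDO2. HPD is highest, at 63.9 CPM, in the pool with the highest muscle share, 5.42%.

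A ratio to hepatocyte markers gave another view of the same counts. Per 1000 counts in hepatocyte markers, TDO2 had 7.52 ± 0.713 counts in mutant palbociclib (SD, n = 5) and 11.5 ± 1.23 in control palbociclib livers (SD, n = 4), and 7.85 ± 0.894 in mutant DMSO (SD, n = 5) and 12.2 ± 0.833 in control DMSO livers (SD, n = 4). TDO2 stayed lower in mutant livers on this measure, without overlap of pools in either treatment. HAL did so too, by a narrower margin. Its highest mutant pool was at 6.24 and its lowest control pool at 6.25 in DMSO, and at 5.90 and 6.11 in palbociclib. FAH was lower in mutant livers without overlap in palbociclib only, with its highest mutant pool at 2.71 and its lowest control pool at 2.81. GNMT and HPD went the other way in DMSO, where every mutant pool was above every control pool. For GNMT the lowest mutant DMSO pool was at 4.12 and the highest control DMSO pool at 3.22. How many of all genes had such a gap on this measure was not counted. hpda had 14.5 ± 0.808 in mutant DMSO (SD, n = 5) and 14.3 ± 0.509 in control DMSO livers (SD, n = 4), which differed by less than the spread between pools. ALDH7A1 had 11.5 ± 1.75 in mutant DMSO (SD, n = 5) and 7.66 ± 1.03 in control DMSO livers (SD, n = 4), and GNMT had 4.39 ± 0.325 in the mutant and 2.84 ± 0.287 in the control livers. Refitting all genes on this scale moved the median log2 fold change of all genes tested from 0.06 to 1.63, and all 10 genes but HPD lay below that median. In that fit TDO2 was called lower at -0.64, and HPD (1.70), GNMT (0.63) and ALDH7A1 (0.58) were called higher. HAL was not called there (-0.26, edgeR adjusted p = 0.202), and 15434 of all genes tested were called.

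**Figure D4:**
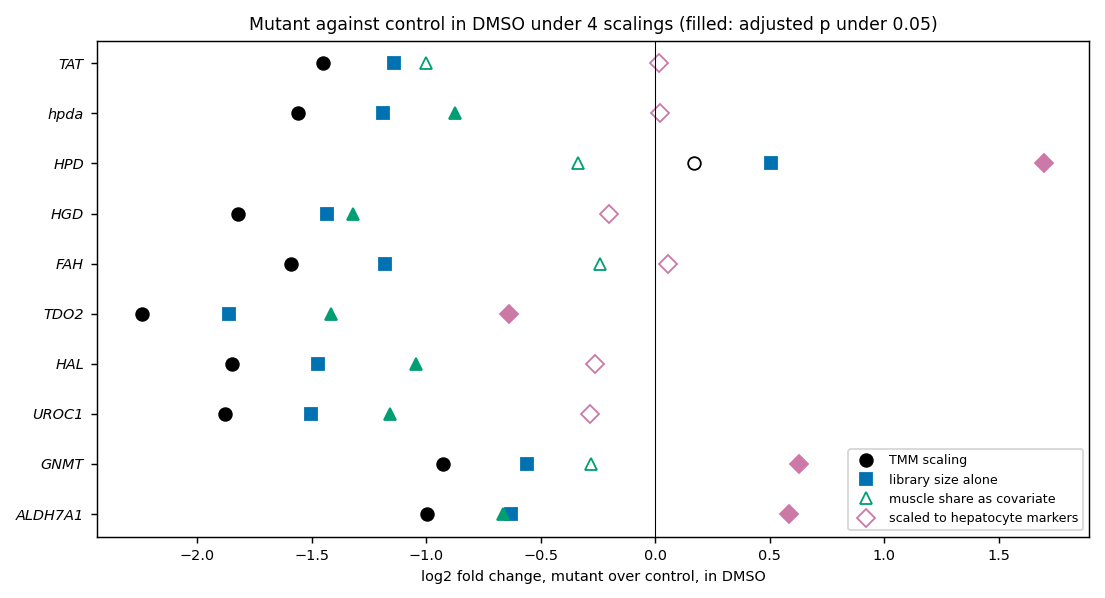
Log2 fold change of mutant over control in DMSO (x axis) for each of the 10 genes (rows) with TMM scaling, library size alone, the muscle share as a covariate and scaling to the hepatocyte markers; filled marks have an edgeR adjusted p below 0.05. TDO2 is filled and left of 0 under all 4, at -0.64 with the hepatocyte markers and -2.24 with TMM. HPD, GNMT and ALDH7A1 are filled to the right of 0 with the hepatocyte markers, as is HPD with library size alone.

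The other genes of the same pathways were taken from 9 lists that follow textbook amino acid metabolism, with 127 genes outside the 10, of which 119 were tested. Some genes stand in several lists, and the 127 and the 119 are without such repeats. In DMSO, 72 of these were called lower in mutant livers, 3 higher and 44 not called, and the median log2 fold change was -0.70. Over all genes tested, 17.1% were called and 10.4% were called lower. Scaled to the hepatocyte markers, 72 of the 119 were called higher and 2 lower, and 15434 of all 17048 genes tested were called. The direction of these lists thus depends on that scaling, under which most genes tested moved up. In palbociclib 4 of the 119 were called, where 1.05% of all genes tested were. All 4 were lower in mutant livers: GSTZ1 (-0.95, edgeR adjusted p = 0.0133), SARDH (-0.99, edgeR adjusted p = 0.0461), an ID of MTHFD1 (-0.85, edgeR adjusted p = 0.0318) and an ID of AGXT (-1.23, edgeR adjusted p = 0.0410). For SARDH, MTHFD1 and AGXT the names were given after their values were seen.

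In the phenylalanine and tyrosine list 4 of 7 were called lower in mutant DMSO livers, where 10.4% of all genes tested were. GSTZ1, the isomerase between HGD and FAH, averaged 18.7 ± 6.66 CPM in mutant DMSO (SD, n = 5) and 53.2 ± 9.55 CPM in control DMSO livers (SD, n = 4), a log2 fold change of -1.52 (edgeR adjusted p = 1.01e-06). PCBD1 (-1.12) and an ID of QDPR (-1.27), which recycle tetrahydrobiopterin, were called as well, as was FAHD1 (-1.11), whose protein resembles FAH. In the list for tetrahydrobiopterin supply 4 of 9 were called lower. These were PCBD1 and the same ID of QDPR, which stand in both lists, GCH1 (-1.27), which starts its synthesis, and GCHFR (-1.49), which regulates that enzyme.

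Of the tryptophan list 6 of 9 were called lower in mutant DMSO livers, again beside 10.4% of all genes tested. The second tryptophan dioxygenase gene, tdo2b, averaged 77.5 ± 19.4 CPM in mutant DMSO (SD, n = 5) and 275 ± 79.3 CPM in control DMSO livers (SD, n = 4), at a log2 fold change of -1.83 (edgeR adjusted p = 0.00092). KMO (-1.73), HAAO (-1.72) and ACMSD (-1.67), which act on kynurenine and its products, were called lower. Both tested genes that follow HAL and UROC1 in histidine breakdown were called lower, AMDHD1 at -1.83 (edgeR adjusted p = 3.23e-05) and FTCD at -1.51 (edgeR adjusted p = 0.000153).

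In the methionine, cysteine and one-carbon list 16 of 22 were called lower in mutant DMSO livers, with a median of -1.11. The share called lower over all genes tested, 10.4%, stands beside this list and those that follow. DMGDH, which demethylates dimethylglycine, averaged 85.9 ± 5.88 CPM in mutant DMSO (SD, n = 5) and 259 ± 32.2 CPM in control DMSO livers (SD, n = 4), and CBS (-1.44), SUOX (-1.39) and CSAD (-1.09) act on homocysteine and cysteine sulfur. In the glycine, serine and threonine list 12 of 16 were called lower, among them SHMT1 (-1.38), SHMT2 (-1.06), GCAT (-1.26) and AMT (-1.19). In the lysine list 4 of 8 were called lower: PIPOX (-1.71), DHTKD1 (-1.02) and the pair of IDs with the symbol GCDH (-1.13 and -0.50).

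The branched-chain list had 15 of 24 called lower in mutant DMSO livers at a smaller median of -0.50, with ALDH6A1 (-1.35), HIBCH (-1.12), PCCB (-0.66) and IVD (-0.61). The list for glutamate, arginine, proline and urea was the most mixed, with 11 of 26 called lower, 3 higher and a median of -0.13. glud1a, a glutamate dehydrogenase, averaged 77.6 ± 9.01 CPM in mutant DMSO (SD, n = 5) and 206 ± 31.8 CPM in control DMSO livers (SD, n = 4), at a log2 fold change of -1.41 (edgeR adjusted p = 5.25e-12), and its interaction of 1.25 was called (edgeR adjusted p = 9.84e-06). ALDH4A1 (-1.11), GOT2 (-0.86) and HOGA1 (-1.66) were also called lower. The 3 genes called higher were prodha (0.57), which starts proline breakdown, GPT2 (0.65), an alanine aminotransferase, and an ID of GLUL (0.39), which makes glutamine and was the only one of the 3 whose groups overlapped.

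The medians of the treatment comparisons had the same signs for the 119 genes as for the 10. With palbociclib 27 were called lower and 2 higher in control livers, at a median of -0.42, where 5.71% of all genes tested were called and 4.33% were called lower. In mutant livers the median was 0.11, and BCAT1 (-0.86, named after its value was seen) alone was called, where 0.54% of all genes tested were. BCAT1 was thus lower with palbociclib, where ALDH7A1, the only called gene of the 10, was higher. Over all genes tested 1.99% had a called interaction and 1.74% a positive one. The interaction was called for 15 of the 119 genes, all positive, at a median of 0.54. Among them were DMGDH (1.07, edgeR adjusted p = 0.0130), SHMT2 (0.89, edgeR adjusted p = 0.0036) and DHTKD1 (0.62, edgeR adjusted p = 0.0162).

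**Figure D5:**
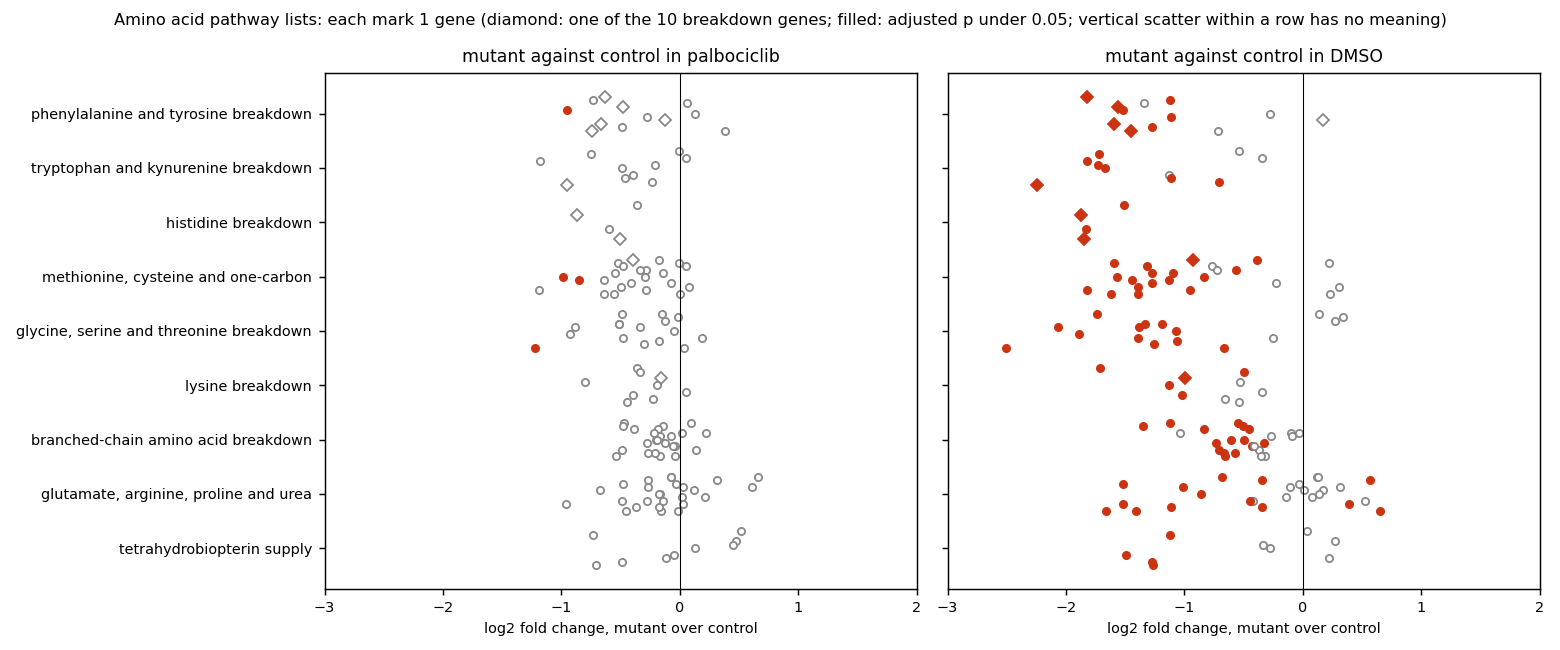
Log2 fold change of mutant over control (x axis) in palbociclib (left) and in DMSO (right) for every tested gene of the 9 amino acid lists (rows); diamonds are the 10 breakdown genes, circles the other 119, filled where the edgeR adjusted p was below 0.05, and height within a row has no meaning. In DMSO the filled marks lie left of 0 except prodha, GPT2 and GLUL, and in palbociclib 4 circles and no diamond are filled.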

How the data were processed

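Total RNA from pooled larval livers was depleted of ribosomal RNA and sequenced as read pairs, per the labels' protocols. The authors deposited counts per gene and library as whole numbers. Per the submitters' processing notes, FastQC 0.11.5 served for read quality and Trimmomatic 0.36 for trimming. Which aligner, counting program, strand setting, genome build and annotation were used is not given in the sources used here. Overlapping and related genes may share or lose counts. Identical columns were found in 0 pairs of libraries.

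Symbols came from a reference table, which named 26269 of 32105 gene IDs. The filter on low counts (edgeR's filterByExpr) kept 17048 genes with 99.6% of the counts and removed 15057. TMM factors ran from 0.762 to 1.16. The model held all 18 libraries with a coefficient for each group (edgeR 4.0.16, limma 3.58.1, R 4.3.3, quasi-likelihood with robust dispersion), and comparisons were contrasts of it. A gene was called at a Benjamini-Hochberg false discovery rate of 0.05 over all genes tested, with no minimum change. The common biological coefficient of variation was 0.218, so spread between pools and not depth limits the precision here. CPM are counts-per-million of the TMM-adjusted library size. Shares of counts in marker lists were tested by exact permutation, two-sided (scipy 1.17.1). Tables were handled with pandas 2.3.3, and the edgeR code was tested on simulated data.

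Outside the 10 genes, the text names from each pathway list the 4 genes with the smallest adjusted p in mutant against control in DMSO, any listed gene called against the majority of its list, and the 5 genes most correlated with the mean of the 10. 1 further gene of the same kind and some genes of the lists are not reported here, and the counts of listed genes and the ranking by correlation are without them. Exceptions are marked in the text, and uhrf1 was named as the targeted gene. The 10 genes, the lists and the tests were chosen with earlier results of these data known. The alternatives were DESeq2 1.42.0, 3 other scalings, no filter, the muscle share as a covariate, only the compared groups in the fit, a block on replicate number and leaving out each library in turn.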

Additional observations from a re-analysis of the deposited data

Results flagged for a closer look

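HPD in mutant DMSO livers had 1 pool far from the others of its group: the third, at 63.9 CPM, where the other 4 had 48.4 to 52.0 CPM. That pool also had the highest muscle share of its group, 5.42%. Of 40 combinations of gene and group checked in this way, 1 stood out, and chance alone gives about 1 in 20.

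The mutant difference was not the same in palbociclib and in DMSO for 3 of the 10 genes, by the test of the interaction itself in edgeR. The interaction was 1.19 for HGD, 1.34 for HAL and 0.84 for ALDH7A1 on the log2 scale. The hepatocyte share of counts moved alongside: the mean gap between mutant and control livers was -0.41 percentage points in palbociclib and -2.71 in DMSO. With libraries scaled to the hepatocyte markers the interaction was -0.14 for HGD, 0.07 for HAL and -0.45 for ALDH7A1. That scaling moved the median interaction of all genes tested to -1.34, with 11367 genes called, and all 3 values lay above that median. Whether hepatocyte content accounts for the interaction was not tested.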

How the results depend on the processing

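For mutant against control in DMSO the count of 9 called genes was 4 with hepatocyte-marker scaling, which moved the median of all genes by more than 0.1, as did library size alone (0.42), with which it was 10 because HPD was called higher (0.50); it was 8 to 9 when each library was left out. Over all genes tested, 2917 were called in the main fit, 15434 with hepatocyte-marker scaling and 5708 with library size alone. Leaving out libraries gave 2094 to 3456. TAT also lost its call with only the compared groups in the fit (edgeR adjusted p = 0.0559). For mutant against control in palbociclib the count of 0 was 3 with DESeq2, 3 with library size alone, 2 with upper-quartile scaling, 2 with the muscle covariate and 0 to 3 with libraries left out. It was 3 without the last control palbociclib pool, 2 without the second control DMSO pool, and 1 without the first mutant or the third control palbociclib pool. Over all genes tested, 179 were called in the main fit, 336 with DESeq2 and 300 with library size alone. Upper-quartile scaling gave 264, the muscle covariate 450, and leaving out libraries 96 to 318. For palbociclib in control livers the count of 3 was 7 with DESeq2, 1 with hepatocyte-marker scaling (HPD, 1.07), 1 with no filter, 0 with the muscle covariate, 0 with only the compared groups and 0 to 8 with libraries left out. Over all genes tested, 973 were called in the main fit, 1206 with DESeq2, 8502 with hepatocyte-marker scaling and 988 with no filter. The muscle covariate gave 55, only the compared groups 351, and leaving out libraries 272 to 2019. In this comparison library size alone lost the calls of HGD (-0.34, edgeR adjusted p = 0.0988) and ALDH7A1 (-0.17, edgeR adjusted p = 0.365). It called hpda (-0.45), TDO2 (-0.62) and UROC1 (-0.61) lower instead. Over all genes tested it called 1472, at a median of 0.23. For palbociclib in mutant livers the count of 1 was 2 with DESeq2, library size alone or upper-quartile scaling, 0 with hepatocyte-marker scaling, 5 with the muscle covariate, 3 with only the compared groups and 0 to 2 with libraries left out. Over all genes tested, 92 were called in the main fit, 164 with DESeq2, 141 with library size alone and 115 with upper-quartile scaling. Hepatocyte-marker scaling gave 872, the muscle covariate 363, only the compared groups 181, and leaving out libraries 39 to 116. The interaction count of 3, all positive, was 2 with hepatocyte-marker scaling, both negative (HPD and GNMT), 6 with DESeq2, 6 with library size alone, 5 with the muscle covariate and 2 to 6 with libraries left out. Over all genes tested, 340 were called in the main fit, 11367 with hepatocyte-marker scaling and 572 with DESeq2. Library size alone gave 391, the muscle covariate 243, and leaving out libraries 168 to 842. The count of 75 listed pathway genes was 43 with the muscle covariate and 66 to 80 with libraries left out. With libraries left out, the share difference in percentage points ran from -1.78 to -1.21 for hepatocyte markers with palbociclib in control livers, and in mutant against control in DMSO from 1.44 to 2.01 for muscle and 0.226 to 0.331 for skin markers. Where calls or signs changed, the cause was not tested.

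Signs turned round chiefly with hepatocyte-marker scaling. In mutant against control in DMSO these were TAT 0.017, hpda 0.019, FAH 0.056, GNMT 0.63 and ALDH7A1 0.58, and in palbociclib HPD 0.067 and ALDH7A1 0.13. For palbociclib in control livers they were hpda 0.10, HGD 0.25, FAH 0.16, GNMT 0.20 and ALDH7A1 0.39. In mutant livers they were hpda -0.085, FAH -0.23, TDO2 -0.063, HAL -0.011, UROC1 -0.31 and ALDH7A1 -0.058. For the interaction they were TAT -0.33, hpda -0.18, HGD -0.14, FAH -0.38, UROC1 -0.22, GNMT -0.74 and ALDH7A1 -0.45. The muscle covariate turned HPD in DMSO (-0.34), HPD (-0.24) and FAH (0.45) with palbociclib in control livers, TAT (0.060) and GNMT (0.032) with palbociclib in mutant livers, and the interaction of HPD (0.073) and FAH (-0.025). With libraries left out, palbociclib in mutant livers gave TAT from -0.10 to 0.10 and GNMT from -0.15 to 0.085.

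The labels do not say that replicate numbers pair the pools. Over all genes tested, same-numbered pools did not deviate together (correlations from -0.166 to 0.046). For TAT, however, control pools numbered 1 and 2 were above the other pools of their group in both treatments. They had 846 and 558 CPM in DMSO, and 358 and 495 CPM in palbociclib. With a replicate block the count was 9 for mutant against control in DMSO, 0 in palbociclib, 0 for palbociclib in either genotype and 2 for the interaction, where HAL lost its call (edgeR adjusted p = 0.112). Over all genes tested that block gave 2380 for mutant against control in DMSO, 111 in palbociclib and 134 for the interaction. For palbociclib against DMSO it gave 264 in control and 59 in mutant livers.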
